A study of Mus musculus with 6 samples.

Results

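Genes that make, receive and clear leukotrienes and prostaglandins were followed in mouse bone marrow before and after a sort for green fluorescent protein (GFP). Pla2g7, which breaks down platelet-activating factor, was followed with them. The set holds 10 genes that were chosen by symbol with earlier results of these data known. They are Alox5, Alox5ap, Alox15, Lta4h, Ltc4s, Ltb4r1, Ptgs1, Ptgs2, Hpgds and Pla2g7. Of these, 9 were measured by a probe set with 1 gene symbol, out of 18193 genes measured in all, and Ptgs1 was not analysed here. All mice were hemizygous for the transgene Tg(Ren1-GFP)2Kwg, in which GFP follows the renin gene, so the unsorted samples carry it too. Males and females aged 3 to 6 months gave femoral marrow, which was pooled from 4 to 5 mice for each replicate. Part of each pool stayed unsorted (presort, n = 3) and the remainder was sorted for GFP (sorted, n = 3). The gates first took out erythrocytes and debris by scatter and then kept single cells, and the lower GFP limit admitted 0.1% of cells from mice without the transgene. Each sample was read on 1 Affymetrix 3' array, and each animal contributes only as part of a pool.

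Eicosanoids are short-lived lipid signals made from arachidonate that phospholipases release from membranes. In the leukotriene branch, 5-lipoxygenase (Alox5) works with its membrane partner FLAP (Alox5ap) to form leukotriene A4, which Lta4h hydrolyses to the neutrophil attractant leukotriene B4, or Ltc4s joins to glutathione. Cyclooxygenases (Ptgs1, Ptgs2) open the prostaglandin branch, and Hpgds then makes prostaglandin D2 in blood cells. In marrow this machinery is known mainly from granulocytes, monocytes, macrophages and mast cells.

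RefSeq promoters (GRCm38.p6; 250 bases before to 50 bases after the annotated start) were found for 7 of the 9 measured members. They are shown for Alox5 and Ltb4r1, which were lower in all 3 sorted samples, and for Ptgs2, whose values differed most between presort samples. Capitals mark matches, on either strand, to GAGGAA (core of PU.1 sites), TTGCNNAA (C/EBP), TGACGT (core of the cAMP response element) and GGGCGG (GC box), and no marked match overlaps another in these 3 windows.
Alox5, chr6:116461129-116461428, minus strand: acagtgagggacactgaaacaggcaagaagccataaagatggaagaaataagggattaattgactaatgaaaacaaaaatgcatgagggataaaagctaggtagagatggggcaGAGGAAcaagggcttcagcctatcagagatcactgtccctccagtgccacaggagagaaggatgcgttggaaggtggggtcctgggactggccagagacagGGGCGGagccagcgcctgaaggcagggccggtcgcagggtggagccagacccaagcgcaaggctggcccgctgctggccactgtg
Ltb4r1, chr14:55765712-55766011, plus strand: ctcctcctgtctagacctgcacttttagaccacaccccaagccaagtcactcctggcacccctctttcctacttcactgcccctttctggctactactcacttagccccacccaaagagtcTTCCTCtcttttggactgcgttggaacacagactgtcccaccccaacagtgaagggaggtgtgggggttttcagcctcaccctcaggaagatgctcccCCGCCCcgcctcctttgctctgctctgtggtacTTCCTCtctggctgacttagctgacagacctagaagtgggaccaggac
Ptgs2, chr1:150099781-150100080, plus strand: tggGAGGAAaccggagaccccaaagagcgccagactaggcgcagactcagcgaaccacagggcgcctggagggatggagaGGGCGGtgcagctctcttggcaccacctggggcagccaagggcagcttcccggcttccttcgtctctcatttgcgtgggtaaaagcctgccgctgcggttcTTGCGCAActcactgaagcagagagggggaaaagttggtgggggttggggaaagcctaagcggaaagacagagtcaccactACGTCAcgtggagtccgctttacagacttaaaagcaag
GAGGAA was present in 6 of the 7 member promoters, against 28.3% of 32851 RefSeq promoters of the same length, and GGGCGG in 4 of 7, against 35.7%. The promoters with GAGGAA were those of Alox5, Lta4h and Ltb4r1, and of Hpgds, Ltc4s and Ptgs2, which did not pass the test for a difference. Pla2g7, with the largest fall of the members, lacked it, and no promoter was found for Alox5ap and Alox15. TTGCNNAA stood in 2 (Hpgds and Ptgs2), against 10.8%, and TGACGT in 1 (Ptgs2), against 7.5%. These matches describe letters in a window, and no factor's binding was measured.

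Alox5, Alox5ap, Lta4h and Ltb4r1, genes of leukotriene B4 production and reception, were lower in the sorted samples, as were Alox15 and Pla2g7. Ptgs2, Hpgds and Ltc4s did not pass the test, and Hpgds and Ltc4s were dim in both groups. In limma, with Benjamini-Hochberg adjustment over all 18193 genes and a threshold of 0.05, 6 of the 9 measured members were lower and 0 were higher. The background is broad: 18.1% of all genes were called lower and 14.5% higher. At an unadjusted p under 0.05, 7 members were lower and 0 higher, against 21.6% and 18.4% of all genes. The median difference over the 9 members was -2.65 on the log2 scale, against -0.0021 over all genes. All 3 sorted values lay below all 3 presort values for 7 members, and for 23.6% of all genes. Since the members were chosen with earlier results of these data known, these shares carry no test. In whole marrow and sorted marrow alike, fewer cells of a type and less RNA per cell cannot be told apart.

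**Figure D1:**
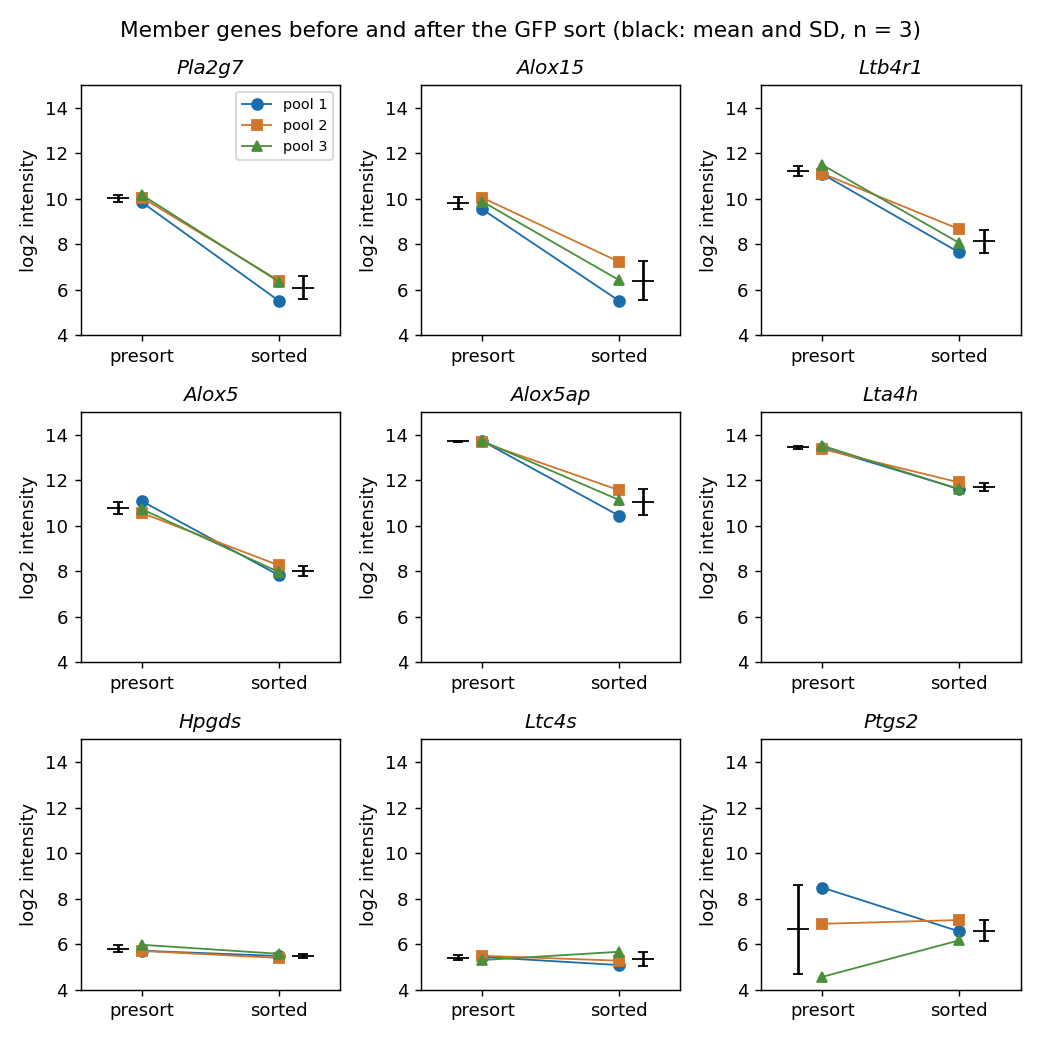
The 9 measured members, 1 panel each, with log2 intensity on the vertical axis; each coloured line joins the presort and sorted sample of 1 pool, and black bars give mean and SD (n = 3). The lines of the 6 called genes (the upper 2 rows) all run downward, Hpgds and Ltc4s stay between 5.08 and 5.97, and the Ptgs2 lines cross.

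Depth of the arrays, sample quality and composition bear on every value below. All arrays share 1 distribution of intensities with a log2 median of 6.04. The 3' minus 5' difference of the beta-actin control probe sets, a measure of RNA integrity, ran from 0.81 to 1.11 in presort and from 1.43 to 3.17 in sorted samples, highest in sorted replicate 1. Among marker lists, all 9 measured B cell genes were higher in sorted samples (median 2.35, with Cd79b at 2.57 and Ms4a1 at 2.27), and all 12 neutrophil genes were lower (median -2.39). The lists of monocytes (6 of 7 lower), macrophages (9 of 9), eosinophils (5 of 6) and basophils and mast cells (7 of 7) were lower too. Without pool 3 the calls over all genes came to 1544 higher and 2362 lower, against 2629 and 3296 with all pools. When arrays were centred on their gene medians, the median of all genes moved to 0.23 and 66.7% of the calls were higher, against 44.4%.

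5-lipoxygenase fell together with its partner. Alox5 stood at 11.08, 10.56 and 10.73 (log2 intensity) in presort replicates 1, 2 and 3 and at 7.83, 8.27 and 7.98 in the sorted samples. The groups lay far apart, with the highest sorted value 2.29 below the lowest presort value. Its difference was -2.76 ± 0.17 (SE; 6.80-fold lower; limma adjusted p = 2.54e-05), in 3 of 3 pools. Alox5ap, the FLAP gene, stood at 13.73, 13.67 and 13.73 in presort and 10.45, 11.57 and 11.14 in sorted samples. The presort samples were nearly identical (SD 0.03), and nearly all of the spread lay among sorted samples (SD 0.57). Alox5ap fell by 2.65 ± 0.25 (SE, log2; 6.30-fold; limma adjusted p = 0.000137). Between Alox5 and Alox5ap the changes differed by -0.11 (log2), with pools at 0.03, -0.19 and -0.16 (two-sided exact permutation test, p = 0.6, adjusted 0.6 over the 4 member pairs tested).

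Alox15 encodes the 12/15-lipoxygenase, known from eosinophils and resident macrophages. Presort values were 9.54, 10.05 and 9.88, and sorted values were 5.52, 7.23 and 6.43. Sorted replicate 1 was lowest and replicate 2 highest, and no sorted value reached the presort range. The difference was -3.42 ± 0.38 (SE, log2; 10.7-fold; limma adjusted p = 0.000302). Because the sorted values lie near the median intensity of the array, where signal and background are hard to separate without detection calls, this fold may be understated. A fit with the beta-actin measure as a covariate put it at -2.60 ± 0.32 (adjusted p = 0.00114). Among markers of cells in which Alox15 is known, eosinophil Epx stood at -3.68 and Prg2 at -3.35, and macrophage Mrc1 at -2.88 and Vcam1 at -2.62. The eosinophil list's summed linear intensity ran from 11338 to 22994 in presort and from 790 to 6076 in sorted samples, and its part in the Alox15 result was not tested. The change of Alox5 minus that of Alox15 was 0.66 (log2; 0.77, 0.52 and 0.69 in pools 1, 2 and 3), which gave p = 0.2 in the exact permutation test (adjusted 0.267).

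At the fork after leukotriene A4, Lta4h was called lower and Ltc4s was not. Lta4h, the hydrolase that makes leukotriene B4, stood at 13.44, 13.38 and 13.53 in presort and at 11.62, 11.91 and 11.61 in sorted samples. Its groups were tight and well apart. It fell by 1.73 ± 0.12 (SE, log2; 3.32-fold; limma adjusted p = 3.53e-05). Lta4h has 3 probe sets. The second brightest gave -1.76 (adjusted p = 0.000919 over all 34945 single-symbol probe sets, of which 15.3% were called lower and 13.5% higher), almost the same as the brightest. The dimmest lay near the array median at a mean of 6.20 and gave 0.18 (adjusted p = 0.556), and the mean of all 3 gave -1.10 (adjusted p = 0.000900).

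Ltc4s, the synthase that starts the cysteinyl leukotrienes, did not pass. Its values were 5.44, 5.49 and 5.30 in presort and 5.08, 5.27 and 5.67 in sorted samples, all below the array median. The groups overlapped, with sorted replicate 3 the highest of the 6 and sorted replicate 1 the lowest. The difference was -0.07 (95% interval -0.45 to 0.31, log2; limma adjusted p = 0.811), and a signal this dim leaves larger changes of the transcript possible. The change of Lta4h minus that of Ltc4s was -1.66 (pools at -1.45, -1.25 and -2.28; exact permutation p = 0.1, the smallest that 3 against 3 arrays allow; adjusted 0.2). With Ltc4s this dim, that value is close to the fall of Lta4h alone. Alox5 changed by -1.03 relative to Lta4h, with pools at -1.44, -0.83 and -0.84 (exact permutation p = 0.1, adjusted 0.2). With the mean of the Lta4h probe sets these 2 values became -1.03 and -1.66. The pair tests take no account of the pools. An exact two-sided sign-flip test within pools, added after the data were seen, cannot go below p = 0.25 with 3 pools, and it gave 0.25 for each pair but Alox5 and Alox5ap (p = 0.5). The pair of Ptgs2 and Ptgs1 was not compared.

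Ltb4r1 encodes BLT1, the high-affinity receptor through which leukotriene B4 draws neutrophils. It stood at 11.08, 11.11 and 11.48 in presort and at 7.64, 8.67 and 8.06 in sorted samples. Every sorted value was more than 2 log2 units below the lowest presort value. It fell by 3.10 ± 0.25 (SE, log2; 8.56-fold; limma adjusted p = 6.22e-05), larger in pools 1 and 3 (-3.44 and -3.42) than in pool 2 (-2.44). The neutrophil list's medians by pool were -2.37, -1.76 and -2.68 in pools 1, 2 and 3, also smallest in pool 2. Those of the macrophage (-2.08), eosinophil (-1.79) and basophil and mast cell (-2.49) lists were smallest there too. The monocyte list's median was smallest in pool 3 (-2.51, against -2.68 in pool 2). The part of these cell types in the Ltb4r1 result was not tested.

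Pla2g7, the plasma platelet-activating factor acetylhydrolase, which inactivates that lipid mediator, showed the largest difference of the 9. It was at 9.84, 10.05 and 10.16 in presort and at 5.52, 6.40 and 6.36 in sorted samples. The presort samples agreed to within 0.32, and sorted replicate 1 lay below the other two. It fell by 3.92 ± 0.24 (SE, log2; 15.1-fold; limma adjusted p = 2.33e-05). The sorted values lay near the array median, so the fold may be understated as for Alox15.

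**Figure D2:**
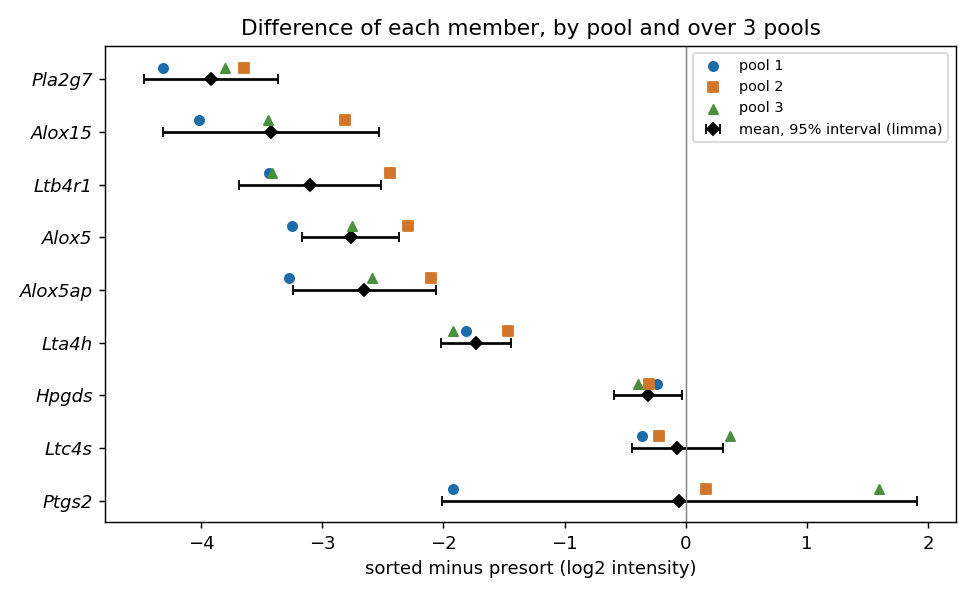
Sorted minus presort difference (log2 intensity) for each measured member, with coloured points for the 3 pools and a black diamond with the 95% interval of the limma fit. From Pla2g7 at -3.92 to Lta4h at -1.73 the intervals lie below 0; that of Hpgds ends at -0.03 and the one of Ptgs2 runs from -2.01 to 1.91.

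Ptgs2, the inducible cyclooxygenase, showed no common direction. Presort replicates 1, 2 and 3 stood at 8.48, 6.89 and 4.57, and the sorted samples at 6.56, 7.06 and 6.16. The presort samples spread over 3.92 log2 units (SD 1.97) and enclosed all 3 sorted values (SD 0.45). Its difference was -1.92 in pool 1, 0.17 in pool 2 and 1.60 in pool 3, with a mean of -0.05 ± 0.84 (SE; limma adjusted p = 0.977). Without presort replicate 1 it was 0.87 ± 0.63 (adjusted p = 0.400). Without presort replicate 3 it was -1.09, so the sign depended on which sample was left out. The AP-1 genes Fosb and Jun, named after their values were seen, were likewise highest in presort replicate 1 and lowest in presort replicate 3. The 3 presort values were 8.79, 5.35 and 4.51 for Fosb. For Jun they were 10.37, 8.20 and 5.84. In the sorted samples they parted from Ptgs2, at 10.49 or above for Fosb and 11.68 or above for Jun. A second Ptgs2 probe set was dim, at 4.78 to 4.94 in presort and 4.83 to 5.32 in sorted samples, and did not follow the spread of the first.

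Hpgds, the hematopoietic prostaglandin D synthase, was dim and did not pass. It stood at 5.71, 5.70 and 5.97 in presort and at 5.48, 5.39 and 5.58 in sorted samples. The groups did not overlap, but by a gap of only 0.12. The difference of -0.31 ± 0.12 (SE, log2; limma unadjusted p = 0.0343, adjusted p = 0.0920) missed the threshold. When arrays were centred on their gene medians it shrank to -0.08. For comparison, markers of basophils and mast cells, cells known to use Hpgds, were lower, with Mcpt8 at -3.38 and Hdc at -2.57.

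The 6 called members shared much of their pattern across pools. All 6 fell least in pool 2, and 5 of them fell most in pool 1 and were lowest in sorted replicate 1, the exception being Lta4h. The median differences of these members were -3.36, -2.36 and -3.09 in pools 1, 2 and 3. How many of all genes share this order was not counted. The medians of the neutrophil (-1.76), macrophage (-2.08), eosinophil (-1.79) and basophil and mast cell (-2.49) lists were also smallest in size in pool 2. Those of the other falling lists, among them monocytes and erythroid cells, were smallest in pool 1 or pool 3. Sorted replicate 1 also had the highest beta-actin 3' to 5' difference. With that measure as a covariate, Alox5ap stood at -2.10, Ltb4r1 at -2.63, Pla2g7 at -3.35, Alox5 at -2.62 and Lta4h at -1.65. The measure was higher in every sorted than in every presort sample, so the fit cannot fully separate it from the sort. Without sorted replicate 1 all 6 calls were still made, with differences from -3.63 for Pla2g7 to -1.69 for Lta4h. By the root mean square distance of centred log2 values over the 6 samples, the nearest gene was Slc2a3 for Alox5 (0.11), Anxa2 for Alox5ap (0.08), Clec4e for Alox15 (0.14) and Aprt for Lta4h (0.04). It was Nkg7 for Ltb4r1 (0.10), Itgam for Pla2g7 (0.13), Spryd4 for Ltc4s (0.05) and C430002N11Rik for Hpgds (0.04). The gene closest to Ptgs2 was Ccnb1ip1, at 0.63. These distances are not scaled by how much a gene varies, so they cannot be compared between flat and variable members. They are descriptions over samples of 2 groups and carry no test.

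Among the other genes of the pathway list, which holds eicosanoid and platelet-activating factor genes, falls were likewise more frequent than rises. Of 69 other genes listed by role, 63 were measured, 19 were lower (30.2%, against 18.1% of all genes) and 3 were higher (4.8%, against 14.5%), with a median of -0.14. The list was written with earlier results of these data known, and its share carries no test. When arrays were centred on their gene medians, 8 genes of the whole pathway list, members included, were higher in place of 3, and 24 were lower in place of 25.

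Of the 17 measured phospholipases 3 were lower (17.6%, near the 18.1% of all genes) and 14 did not pass. Pla2g4a, the cytosolic enzyme that releases arachidonate for both branches, stood at 9.24, 9.62 and 9.47 in presort and at 6.61, 7.01 and 6.47 in sorted samples. It fell by 2.74 ± 0.17 (SE, log2; limma adjusted p = 2.49e-05), close to Alox5. Pla2g4c, of the same cytosolic family, fell by 2.10 at 1 probe set, whose group mean went from 7.53 before the sort to 5.43 after it. Another Pla2g4c probe set was already near the array median before the sort (6.27, then 6.19). It stood at -0.08 (adjusted p = 0.672), and averaging both probe sets gave -1.09. Plaat3, an adipose phospholipase, fell by 1.35, and by 0.89 with the beta-actin covariate. Among the lipoxygenases without a member role, Alox12e was lower at -0.90 ± 0.18 (adjusted p = 0.00624). That call was lost without pool 2 or pool 3 and with the beta-actin covariate (adjusted p from 0.0529 to 0.0731).

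Genes of platelet-activating factor moved in both directions. Lpcat2, which makes the lipid in stimulated leukocytes, fell by 2.99 ± 0.22 (SE, log2), and the intracellular hydrolase gene Pafah2 fell by 2.25. Lpcat1, named after its values were seen, fell by 1.46 ± 0.24 (limma adjusted p = 0.00203). Pafah1b3, a catalytic subunit of another acetylhydrolase, rose by 2.46 ± 0.25 (5.49-fold; limma adjusted p = 0.000166), from 10.32, 9.51 and 9.33 to 12.14, 12.31 and 12.08. All 3 sorted values were above the presort range. Its regulatory partner Pafah1b1 had no settled direction: the brightest of 5 probe sets stood at -0.18 (adjusted p = 0.701 over all probe sets) and the other 4 from 0.03 to 0.67, of which the highest passed the test (adjusted p = 0.0331).

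Downstream of leukotriene A4, the microsomal glutathione transferase genes Mgst2 and Mgst3 were lower. Mgst2, which can also make leukotriene C4, fell by 1.70 ± 0.26 (SE, log2). Mgst3 fell by 2.99 ± 0.33, although a dim second Mgst3 probe set stood at -0.01. The mean of the Mgst3 probe sets gave -1.50. Abcc1, which exports leukotriene C4, fell by 1.38, and the mean of its probe sets gave -0.91. The receptor genes Cysltr1 (-0.23), Cysltr2 (-0.11) and Oxgr1 (-0.08) did not pass. The last 2 lay below the array median and are named here outside the rule for named genes. Ggt5, also named outside that rule, did not pass at its brightest probe set (-0.01, limma adjusted p = 0.972 over all probe sets). Its dimmer probe sets were lower, at -1.36 (adjusted p = 0.000258) and -1.33 (adjusted p = 0.000301). Their sorted means of 5.52 and 4.97 lay below the array median.

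In the prostaglandin branch, 3 of the 8 measured synthases besides Ptgs2 and Hpgds were lower (37.5%, against 18.1% of all genes). Tbxas1, the thromboxane synthase, fell by 1.69 ± 0.30 (SE, log2; limma adjusted p = 0.00298). Prxl2b, a prostaglandin F synthase, fell by 1.58 and Ptges2, a membrane-associated prostaglandin E synthase, fell by 0.60. With the beta-actin covariate these falls became -0.96 and -0.92. The Ptges2 call was lost in 8 of 18 alternative analyses (adjusted p from 0.0543 to 0.211), and the Tbxas1 call was lost without pool 3 (0.0565). Cbr1, the brightest of the rest, stood at -0.03.

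The 2 prostaglandin E2 receptors that raise cAMP changed in opposite directions. Ptger2 (EP2) was at 8.05, 8.51 and 8.73 in presort and at 4.56, 5.18 and 4.90 in sorted samples. It fell by 3.55 ± 0.22 (SE, log2; limma adjusted p = 2.36e-05), a size that may be understated, since all 3 sorted values lay below the array median. Ptger4 (EP4) was at 10.69, 10.55 and 10.76 in presort and at 12.76, 12.56 and 12.27 in sorted samples, a rise of 1.87 ± 0.15 (3.64-fold; adjusted p = 5.39e-05). Neither gene's groups overlapped, and a second, dimmer Ptger4 probe set rose by 1.80. Both signs held in all 3 pools, and the difference between the 2 changes was not tested. Ptgir, the prostacyclin receptor gene, fell by 2.56 ± 0.12, and its sorted mean of 4.78 lay below the array median too. Ptger3, named after its values were seen, fell by 1.34 at its brighter probe set and did not pass at the other (0.35, adjusted p = 0.227); the mean of both gave -0.50, and the group means of both probe sets lay below the array median.

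Of the genes for breakdown and transport, Hpgd, which inactivates prostaglandins, fell by 2.83 ± 0.27 (SE, log2) at its brighter probe set, whose name ends in _s_at and which can match several transcripts. Its other probe set gave -0.31 (adjusted p = 0.0848), so the Hpgd call rests on 1 probe set. The exporter gene Abcc4 fell by 1.36. Ephx2, the soluble epoxide hydrolase, stood at -0.93, a call lost in 6 of 18 alternative analyses (adjusted p from 0.0619 to 0.232). The bright reductase gene Ptgr1 stood at -0.20 and did not pass. Ptgr2, the third riser of the pathway list and named after its values were seen, rose by 0.36 ± 0.11, and its call was lost in 10 of 18 alternatives (adjusted p from 0.0541 to 0.572).

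**Figure D3:**
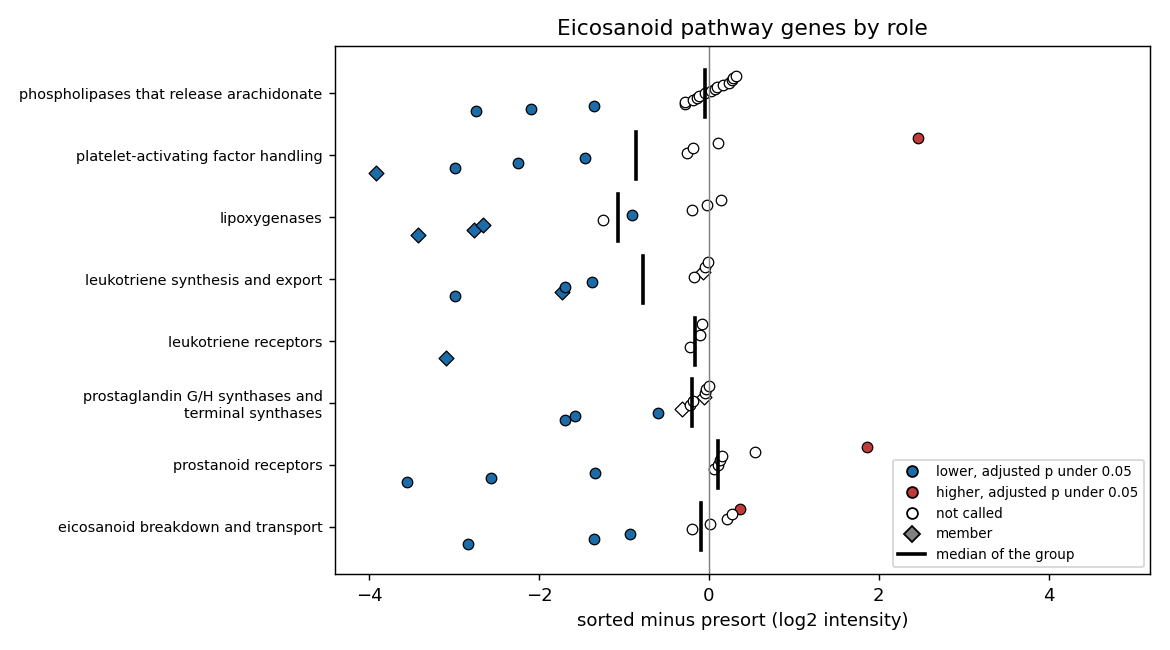
Sorted minus presort difference (log2 intensity) of the 72 measured genes of the pathway list by role, of which 8 handle platelet-activating factor. Each point is a gene, diamonds are members, colour marks the call and the bar is the group's median. Points to the right of 0 with a call are Pafah1b3 at 2.46, Ptger4 at 1.87 and Ptgr2 at 0.36.

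The median of the members, -2.65, stood among the medians of the myeloid marker lists. Those ran from -2.88 for macrophages and -2.79 for monocytes to -2.39 for neutrophils. The bright neutrophil genes Ngp and S100a8 stood at -0.69 and -0.81 near the top of the scale. The summed linear intensity of the neutrophil list ran from 210522 to 220294 in presort and from 58369 to 109017 in sorted samples, and that of the B cell list from 9771 to 19614 and from 69820 to 74633. Other lists changed less: of 6 T cell genes 1 was lower (median -0.33; Cd4 -0.30, Lat -0.57), of 5 NK genes 4 were lower (median -1.08; Nkg7 -2.99, Gzma -1.29) and of 6 megakaryocyte genes 4 were lower (median -1.78; Pf4 -1.69, Itga2b -1.30). Of 6 erythroid genes 5 were lower (median -2.17; Alas2 -1.16, Slc4a1 -1.26). Among monocyte genes Csf1r stood at -2.79, while Ly86 did not pass at 0.35. Intensities on this scale have no 0, the lowest being 9.71, and the part of these cell types in the members' falls was not tested.

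**Figure D4:**
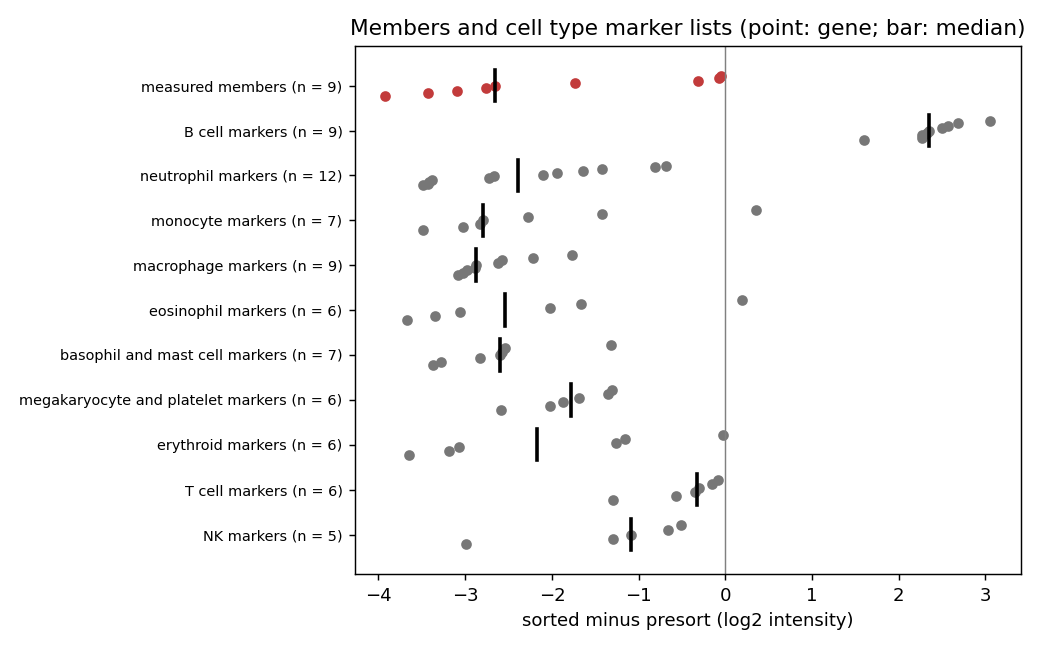
Sorted minus presort difference (log2 intensity) of the 9 measured members (red) and of 10 cell type marker lists (grey); each point is a gene and the bar the median. The members' median of -2.65 stands beside -2.39 for neutrophil and 2.35 for B cell markers.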

How the data were processed

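Per the submitters' processing notes the authors made the deposited intensities with RMA (version not given in the sources used here); they are linear, from 9.71 to 38492.08, and ranked intensities differed by at most 0.181% between arrays, so a change in total RNA per cell leaves no trace. Log2 was taken with no pseudocount. Of 45101 probe sets, 34945 carried 1 symbol in the platform's annotation; a gene was read by its probe set of highest mean. limma 3.58.1 (R 4.3.3; lmFit, eBayes) compared sorted with presort over 18193 genes, two-sided, without a filter on dim genes, and was tested on simulated data. Member pairs were compared with exact permutation tests (scipy 1.17.1), and figures drawn with matplotlib 3.10.9 in Python 3.11.15.

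Both samples of a number come from 1 pool, per the labels; their deviations from the group means correlated at 0.39, 0.20 and -0.03 in pools 1, 2 and 3. The members and gene lists were chosen with earlier results of these data known. Named are every member, in each role group up to 3 other genes with the largest called differences and the brightest other gene, each member's nearest gene, and the 2 brightest markers of a list; exceptions are said. Alternatives were a pool block, single arrays or pools left out, the dimmest 33.3% of genes left out, a second quantile normalization, median centring, averaged probe sets, probe sets without _x_at and _s_at names, a trended robust prior, array weights and a beta-actin covariate. 7 of 79 pathway genes had no probe set with 1 symbol here.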

Additional observations from a re-analysis of the deposited data

How the results depend on the processing

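The 6 called members kept their direction and call in all 18 alternative analyses (108 of 108 values, highest adjusted p 0.0113, for Alox15 without pool 3). With the replicate block for the pool, Alox5 stood at -2.76 ± 0.19 (SE, log2; limma adjusted p = 8.99e-05) and Pla2g7 at -3.92 ± 0.16; 6 members were lower and 0 higher, and no member's call changed. Hpgds stayed uncalled throughout (-0.36 to -0.08; adjusted p from 0.0661 to 0.598).

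With median centring, higher calls came to 5162 over all genes, 8 in the pathway list and 1 among the members' probe sets (the dim one of Ptgs2, 0.45, adjusted p = 0.0449). Leaving out single arrays or pools gave 1544 to 2608 higher genes.

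Gene differences near 0 in the main fit, never called at the gene level, changed sign. Over single arrays and pools left out, Ptgs2 ran from -1.09 to 0.88, Ltc4s from -0.29 to 0.07, Cbr1 from -0.20 to 0.18 and Pafah1b1 from -0.43 to 0.14. Ptgs2 stood at 0.87 without presort replicate 1, 0.07 without presort replicate 2, 0.16 without sorted replicate 3, 0.88 without pool 1, 0.18 with median centring, 0.09 with the mean of probe sets and 0.49 with array weights. Ltc4s stood at 0.06 without sorted replicate 1, 0.07 without pool 1, 0.00 without pool 2, 0.16 with median centring, 0.06 with array weights and 0.17 with the beta-actin covariate, and had no value without the dimmest genes. Cbr1 stood at 0.14, 0.18 and 0.04 without sorted replicate 1, presort replicate 2 or pool 2, at 0.20 with median centring and 0.30 with the covariate. Cysltr1 stood at 0.00 and 0.14 with median centring and the covariate, Pafah1b1 at 0.12, 0.14, 0.05 and 0.22 without sorted replicate 2, without pool 2, with median centring and with the mean of probe sets, and Ptgr1 at 0.03 with median centring. The cause was not tested. Of the pairs, Alox5 against Alox5ap ran from -0.18 to -0.07, and all 4 kept their sign. Signal over background limits Ltc4s, Hpgds and Ptger3 in both groups. It also limits the sorted values of Ptger2, Ptgir, Pla2g4c, Hpgd and Ephx2, whose means lay below the array median, and of Alox15, Pla2g7 and Alox12e near it.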
